A study of Mus musculus with 6 samples.

Results

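Interferon regulatory factors (IRFs) are transcription factors that share an N-terminal DNA-binding domain and recognise sequences built on GAAA. The family was followed here in group 2 innate lymphoid cells (ILC2s), innate cells that lack antigen receptors and make type 2 cytokines. Its members were chosen by gene symbol, as the 8 genes Irf1, Irf2, Irf3, Irf4, Irf5, Irf7, Irf8 and Irf9, among 23185 genes measured with 1 symbol per probe set. All 8 had 1 probe set each, and none was removed by a filter. The cells were an ILC2 line from C57BL/6J mice, grown with 10 ng/ml of the cytokines IL-2 and IL-33, which then received a CRISPR construct with GFP by lentivirus. Control cells carried a non-targeting guide RNA and the other group a guide RNA against Myc, and GFP-positive cells of both were sorted after 6 days. Total RNA was read on 3 arrays per group. Whether those 3 arrays stand for separate cultures is not in the labels, so p-values cover the spread between these samples alone, and it may be technical.

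Members differ in what they do. IRF3 and IRF7 lie downstream of nucleic acid sensors and switch on type I interferon genes, and IRF5 acts downstream of Toll-like receptors. IRF9 joins STAT proteins, STAT2 among them, in the complex ISGF3, which carries the signal of the interferon receptor to the genome. IRF1 activates and IRF2 often restrains interferon-responsive genes. IRF4 and IRF8 bind DNA weakly alone and act with partner proteins of the ETS and AP-1 families. IRF4 is induced when lymphocytes are activated and is required for type 2 and IL-9-producing T helper cells, while IRF8 is best known in dendritic cells, macrophages and B cells.

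Myc itself, the gene targeted by the guide, had log2 values of 9.27, 9.33 and 9.39 on the control arrays and of 9.55, 9.79 and 9.73 on those with the knockout label (limma's adjusted p = 0.127, and 0.0487 with only genes at or above the median level tested). It was thus not lower in the arrays with the knockout label, and every direction below rests on the labels. Array medians lay between 3.27 and 3.34 and lower quartiles between 2.04 and 2.13. Of the ILC2 markers, Gata3 lay between 9.26 and 9.64 and Il13 between 10.89 and 11.33 on all arrays, but Il17rb lay between 1.84 and 2.37 and Thy1 between 3.02 and 3.38, near or below the array medians.

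Irf4 was the member that rose, and it was the only one of the 8 past the threshold over all genes. On the control arrays Irf4 had log2 values of 7.08, 6.76 and 6.93, against 7.58, 7.75 and 7.79 with the knockout label. All 3 arrays with the knockout label stood above all 3 controls, with a gap wider than the range within either group. Means were 6.92 ± 0.16 and 7.71 ± 0.11 (SD, n = 3 arrays), a 1.72-fold rise with a 95% confidence interval of 1.46 to 2.03 (limma, Benjamini-Hochberg adjusted p = 0.0405 over all genes). In this comparison 0.453% of all genes passed in either direction, 0.254% as higher and 0.198% as lower, and among the 8 members 1 rose and 0 fell. For Irf4 alone, p = 0.1 by an exact two-sided permutation test, and 3 against 3 arrays cannot give a smaller one. The call needed all 6 arrays: without any 1 of them the rise was between 0.70 and 0.86 on the log2 scale, with limma's adjusted p between 0.105 and 0.183, and Irf4 did not pass. In RNA from a whole population, a change in the number of cells that express a gene and a change in RNA per cell cannot be told apart.

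**Figure D1:**
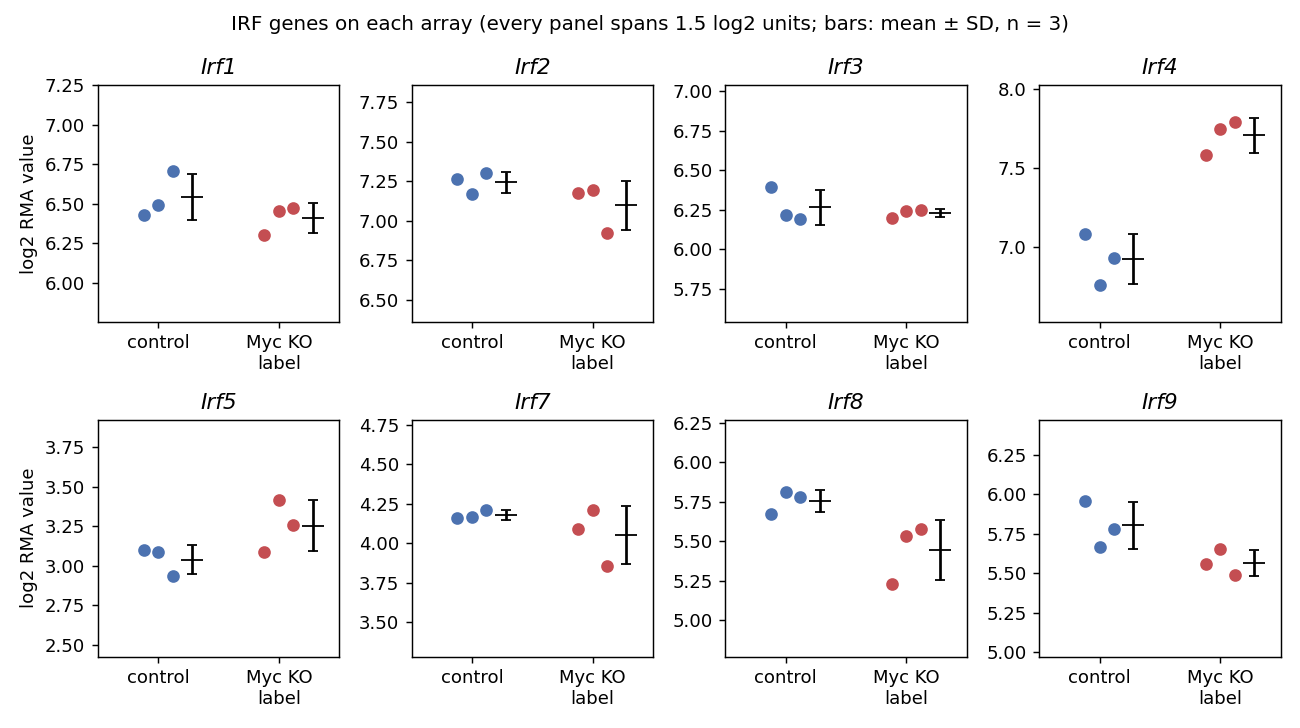
Log2 RMA values (y axis) of the 8 IRF genes on each of the 6 arrays, with controls in blue, arrays labelled Myc knockout in red, and bars for mean ± SD (n = 3). Every panel spans the same log2 width, so distances compare between panels while levels do not; Irf4 separates the groups most widely, from 6.92 to 7.71.

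The sequence ahead of Irf4 is shown because Irf4 is the member that rose, and those of Irf2, Irf8 and Irf1 because they are those in which a searched motif was found. The 8 members matched 11 promoter windows in the RefSeq table for GRCm38.p6, since Irf1, Irf8 and Irf9 have 2 start sites there, and the 250 bases before each start were searched on both strands. The motifs were the interferon-stimulated response element, as GAAA and GAAA 2 bases apart, and the ETS-IRF element, as GGAA and GAAA 2 bases apart. Also searched were the AP-1-IRF elements, as TTTC and TGANTCA 4 bases apart or as GAAA directly followed by TGANTCA, the STAT site TTCNNNGAA, the NF-kappaB site, as GGG and TTTCC 2 bases apart, and the MYC-MAX E-box CACGTG. N stands for any base. Capitals mark the matches, and all run 5′ to 3′ on the strand of the gene.
Irf4, chr13:30748983-30749232, plus strand: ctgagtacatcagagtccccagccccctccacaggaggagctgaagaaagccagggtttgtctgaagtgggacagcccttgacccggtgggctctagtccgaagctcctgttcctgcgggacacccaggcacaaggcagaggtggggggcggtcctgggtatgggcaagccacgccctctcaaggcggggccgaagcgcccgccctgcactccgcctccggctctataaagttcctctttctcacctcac
Irf2, chr8:46739495-46739744, plus strand: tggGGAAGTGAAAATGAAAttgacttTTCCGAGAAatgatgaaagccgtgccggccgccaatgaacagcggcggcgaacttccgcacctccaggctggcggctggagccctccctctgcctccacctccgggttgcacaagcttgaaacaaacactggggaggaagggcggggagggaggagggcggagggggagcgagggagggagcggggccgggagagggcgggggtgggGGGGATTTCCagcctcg
Irf8, chr8:120736108-120736357, plus strand: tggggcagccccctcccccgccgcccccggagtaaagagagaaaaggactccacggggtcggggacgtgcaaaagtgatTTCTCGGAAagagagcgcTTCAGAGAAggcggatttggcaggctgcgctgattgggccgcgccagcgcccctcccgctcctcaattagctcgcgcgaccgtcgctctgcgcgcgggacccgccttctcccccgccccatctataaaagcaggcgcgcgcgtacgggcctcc
Irf1, chr11:53769764-53770013, plus strand: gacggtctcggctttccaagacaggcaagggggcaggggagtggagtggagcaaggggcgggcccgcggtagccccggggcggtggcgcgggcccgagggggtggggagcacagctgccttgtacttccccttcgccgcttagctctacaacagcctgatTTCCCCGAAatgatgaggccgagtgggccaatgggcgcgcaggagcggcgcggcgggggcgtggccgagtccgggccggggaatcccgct

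In Irf2 the ETS-IRF match GGAAGTGAAA overlaps the interferon-stimulated response element GAAAATGAAA, and a STAT match and an NF-kappaB match follow. Irf8 held 2 STAT matches, TTCTCGGAA and TTCAGAGAA, and Irf1 held 1, TTCCCCGAA. The Irf4 window held none of the motifs, and no member window held the E-box. Over all 32851 windows of this length, 2.98% held the interferon-stimulated response element, 2.3% the ETS-IRF element, 7.02% the STAT site, 1.41% the NF-kappaB site and 6.02% the E-box; the spaced and the adjoining AP-1-IRF element were in 0.0974% and 0.1%. A match is only a run of letters. Each pattern covers only some forms of its site, so a window without a match, that of Irf1 for NF-kappaB included, may hold other forms. Such a window also says nothing about sites elsewhere in the gene.

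Irf8, the closest relative of Irf4, was on the other side of zero. It read 5.67, 5.81 and 5.78 on the control arrays and 5.23, 5.54 and 5.57 with the knockout label. The groups did not overlap, and replicate 1 of the knockout label was the lowest array. The log2 difference was −0.31 ± 0.10 (SE), a 1.24-fold lower level, and did not pass (limma's adjusted p = 0.258, unadjusted p = 0.0228). Its 95% confidence interval, −0.56 to −0.058, lay below zero, while that of Irf4 ran from 0.54 to 1.03. Without replicate 1 of the knockout label, the Irf8 difference was −0.20.

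Irf9, the DNA-binding part of ISGF3, was at 5.96, 5.67 and 5.78 in the controls and at 5.56, 5.65 and 5.48 with the knockout label. The groups did not overlap here either, by a margin of hundredths between the lowest control and the highest array of the other group. The difference was −0.24 ± 0.091 (limma's adjusted p = 0.303, unadjusted p = 0.0373) and did not pass; without control replicate 1 it was −0.16 and without control replicate 2 it was −0.30. Groups failed to overlap for 3 of the 8 members, 1 higher and 2 lower, against 19.8% of all genes (9.25% higher and 10.6% lower). Before adjustment, with p under 0.05 in limma, 1 member was higher and 2 were lower, against 6.97% and 7.91% of all genes and 7.76% and 13.8% of those at or above the median level, where 7 of the 8 members lie.

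**Figure D2:**
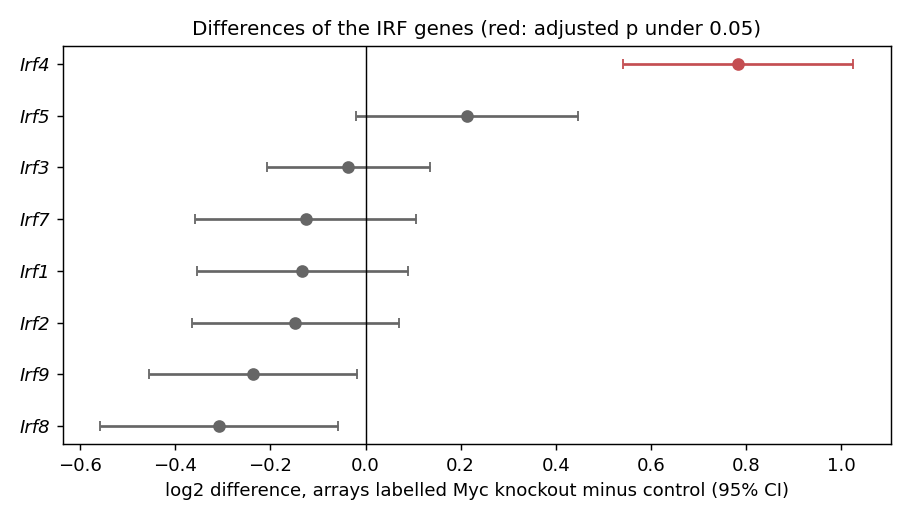
Log2 difference between arrays labelled Myc knockout and controls (x axis) for each IRF gene, with points for the limma estimate and bars for the 95% confidence interval (n = 3 arrays per group). Irf4, in red, is the gene past the threshold at 0.78; the intervals of Irf8 and Irf9 lie below zero and those of the other 5 genes include it.

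The other 5 members had overlapping groups, and none passed. Irf1, an activator of antigen presentation and guanylate-binding protein genes, was at 6.43, 6.49 and 6.71 in the controls and at 6.30, 6.46 and 6.47 with the knockout label. Its difference was −0.13 ± 0.093, with a 95% confidence interval of −0.36 to 0.089 (limma's adjusted p = 0.540). Without control replicate 3, the highest array, it was −0.051. Irf2, its frequent antagonist, read 7.26, 7.17 and 7.30 against 7.18, 7.20 and 6.92. Without replicate 3 of the knockout label, the lowest array, the Irf2 difference was −0.058; with all arrays it was −0.15 ± 0.091 (95% confidence interval −0.37 to 0.070, limma's adjusted p = 0.488). The confidence intervals of Irf1 and Irf2 reach down to 0.776-fold and up to 1.06-fold.

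Irf3, which is kept inactive in the cytoplasm until sensors trigger its phosphorylation, was the member with the smallest difference. It read 6.39, 6.22 and 6.19 in the controls and 6.20, 6.24 and 6.25 with the knockout label, a difference of −0.036 ± 0.072. Control replicate 1 stood above the other 5 arrays, and without it the sign turned, to 0.027. The 95% confidence interval of Irf3 was 0.866-fold to 1.10-fold (limma's adjusted p = 0.843).

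Irf7, the inducible amplifier of the interferon response, was at 4.16, 4.17 and 4.21 in the controls and at 4.09, 4.21 and 3.85 with the knockout label. Only replicate 3 of that label stood clearly below the rest, and without it the difference of −0.13 ± 0.097 was −0.026. Irf5 read 3.10, 3.09 and 2.94 in the controls and 3.09, 3.41 and 3.26 with the knockout label (0.21 ± 0.097, limma's adjusted p = 0.368). Irf5 lay below the array medians in the controls, so these data cannot show its fold change. Each of the other 7 members had a mean level above the median of all probe sets, with Irf4 at the 90.2 percentile and Irf7 at the 59.4 percentile. Levels of different probe sets depend on their probes, so they give no order of abundance between members.

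IRF5, IRF7, IRF8 and IRF4 are also made by B cells, macrophages and dendritic cells, so markers of those cells are given beside them. Of 7 B cell markers 6 had a mean below the median of all probe sets, with Ms4a1 between 1.46 and 1.82, and the mean level of the list ran from 2.17 to 2.27 in controls and from 2.15 to 2.27 with the knockout label. All 10 dendritic cell markers had such a low mean, Siglech between 2.71 and 2.91 and Flt3 between 2.38 and 2.53; the list ran from 2.31 to 2.49 and from 2.48 to 2.67. Of 7 macrophage and monocyte markers 4 lay below it, with Csf1r between 2.14 and 2.41, and the list ran from 3.64 to 3.69 in controls and from 3.51 to 3.61. Cd68, Ly6c2 and Itgam lay above it, with control means of 4.58, 5.02 and 6.61. With the knockout label their means were 4.47, 5.08 and 5.99. None of these markers passed; the integrin gene Itgam differed by −0.63 ± 0.10 (limma's adjusted p = 0.0767). Means of the T cell markers ran from 3.40 to 3.49 and from 3.35 to 3.46 over 9 genes, of which 6 had a mean below that median. Cd3g, Lat and Cd8a lay above it, with means of 5.47, 5.47 and 4.73 in controls and 5.04, 5.29 and 4.93 with the knockout label. None of the 9 passed, and Cd3g differed by −0.43 ± 0.13 (limma's adjusted p = 0.220). List means of the NK cell and ILC1 markers ran from 4.22 to 4.40 and from 4.32 to 4.39 over 7 genes, with 3 below that median. Prf1, Gzma and Cd226 lay well above it, with means of 7.40, 6.52 and 5.94 in controls and 7.49, 6.85 and 5.91 with the knockout label. Means of the ILC3 list ran from 2.29 to 2.42 and from 2.53 to 2.60 over 7 genes, with 4 below that median. The ILC3 list rose in 1 member, Il17a, whose control values lay below the array medians. The part of any such cells in the rise of Irf4 was not tested.

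By profile over the 6 arrays, the genes most like Irf4 were Mir142, Trgc2, Il24, Klrk1 and Tnip3. Likeness was the root mean square difference between mean-centred log2 values, taken over 11592 genes at or above the median level. It was 0.067 for Mir142, a microRNA gene of blood cells, 0.0763 for Trgc2, a T cell receptor gamma constant segment, and 0.0787 for Il24, a cytokine gene of the IL-10 family. It was 0.0894 for Klrk1, the gene of the receptor NKG2D, and 0.0926 for Tnip3, which encodes a binding partner of the NF-kappaB inhibitor A20. Like Irf4, Mir142, Trgc2, Klrk1 and Tnip3 had their lowest value in control replicate 2, while Il24 had it in control replicate 3. These genes were picked for their likeness, so their own rises, from 1.73-fold for Il24 to 1.92-fold for Tnip3, are a description. No fold is given for Klrk1, which lay between 2.88 and 3.18 on the controls, below the array medians, and between 3.73 and 3.80 with the knockout label. Trgc2 belongs to a family with near-identical copies.

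**Figure D3:**
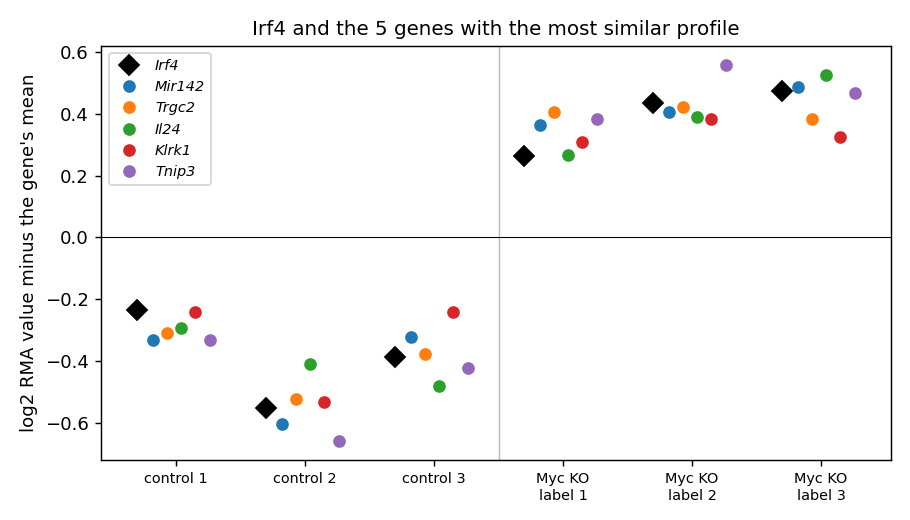
Log2 RMA value of Irf4 (black diamonds) and of the 5 genes with the most similar profile (coloured circles) on each array, each minus its own mean over the 6 arrays. The 6 genes lie below zero on the controls, where Irf4 has its own lowest value in control replicate 2, and above zero on the arrays labelled Myc knockout.

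Cytokine genes were among those that rose on a list of genes known to depend on IRF4 in lymphocytes. Of 22 measured, 5 rose and 1 fell over all genes, beside 0.254% and 0.198% of all genes. At an unadjusted p under 0.05 in limma 10 were higher and 4 lower. Such shares were 6.97% and 7.91% for all genes, and 7.76% and 13.8% at or above the median level, where 18 of the 22 lie. The list was drawn up with earlier results on Il5, Il9 and Il17a known, so its count is not independent evidence of a direction. Il9, a cytokine gene of activated ILC2s and of T helper cells that need IRF4, read 6.03, 6.21 and 5.98 in the controls and 7.30, 7.74 and 7.40 with the knockout label. That was a 2.65-fold rise (limma's adjusted p = 0.0205), and Il5 rose 1.40-fold and the inhibitory receptor gene Tigit 1.44-fold (limma's adjusted p = 0.0386 and 0.0396). Il17a and Il21 also rose, from 2.84 ± 0.17 to 3.79 ± 0.14 and from 2.92 ± 0.16 to 3.70 ± 0.11 (limma's adjusted p = 0.0353 and 0.0419). All their control values lay below the array medians, so these data cannot show the fold changes of Il17a and Il21. Bcl6, a repressor gene of follicular T and germinal centre B cells, was at 6.54 ± 0.020 on control arrays and fell 1.42-fold to 6.03 ± 0.077 (adjusted p = 0.0361 in limma). Prdm1, the gene of the terminal differentiation factor BLIMP-1, differed by −0.044 ± 0.068 and Il4 by 0.0026 ± 0.12. The list median was 0.11, against 0.0077 over all genes with quartiles of −0.090 and 0.10. As for Irf4, none of these calls held with any 1 array left out, and those of Il5 and Tigit were also lost under median centring (limma's adjusted p = 0.05005 and 0.0519).

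**Figure D4:**
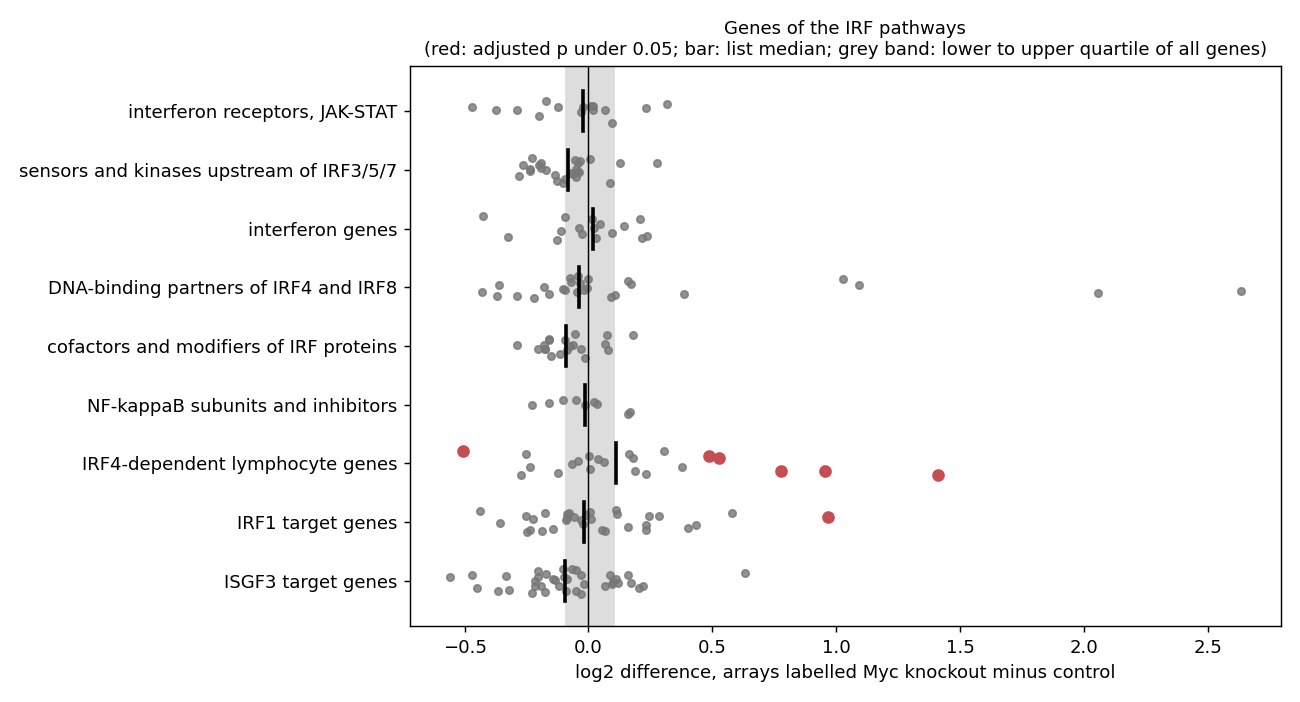
Log2 difference between arrays labelled Myc knockout and controls (x axis) for each measured gene of 9 IRF pathway lists, with black bars for list medians, red points for genes past the threshold and a grey band from the lower to the upper quartile of all genes. Red points stand in the IRF4-dependent list (5 higher, 1 lower) and the IRF1 target list (1 higher); the points far to the right among DNA-binding partners are Fos and Fosb.

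Partners that bind DNA with IRF4 and IRF8 were split in direction. None of 26 passed over all genes, and the median difference was −0.038. At an unadjusted p under 0.05 in limma 5 were higher and 6 lower. Such shares were 6.97% and 7.91% for all genes, and 7.76% and 13.8% at or above the median level, where 22 of the 26 lie. The 5 higher were the AP-1 genes Jun, Junb, Fos, Fosb and Fosl1. The 6 lower were Fosl2, also of AP-1, Stat3, Stat6, Ikzf1, Ikzf2 and the dim Spib. Batf, the AP-1 family gene whose product pairs with IRF4 at composite elements, read 8.79, 8.66 and 8.74 in the controls and 8.67, 8.73 and 8.57 with the knockout label (−0.074 ± 0.068). Junb, the usual partner of BATF, read 7.79, 7.70 and 7.64 against 7.80, 8.24 and 8.26 (0.38 ± 0.13, limma's adjusted p = 0.261). Fos, an immediate early AP-1 gene, was at 4.76 on each control and at 6.30, 7.63 and 8.25 with the knockout label. Despite that separation Fos did not pass (2.63 ± 0.45, limma's adjusted p = 0.0796), and its SD was 0.99 among the arrays with the knockout label against 0.00054 among controls. Stat6, the transducer of the IL-4 signal, differed by −0.37 ± 0.057 and Fosl2 by −0.43 ± 0.079 (limma's adjusted p = 0.0665 and 0.0915). Spi1, the gene of the ETS partner PU.1, was between 2.66 and 2.98 on all arrays, below the array medians.

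Of NF-kappaB subunits and inhibitors, whose pathway induces Irf1 and Irf4, none of 9 measured passed (median −0.014), with 0 higher and 1 lower before adjustment (limma, p under 0.05). Shares at that p were 6.97% higher and 7.91% lower over all genes, and 7.76% and 13.8% at or above the median level. Bcl3 differed by −0.23 ± 0.083, Nfkbia by −0.16 ± 0.075 and Nfkbib by 0.17 ± 0.083. Cofactors and modifiers of IRF proteins were below zero in 16 of 20 genes, with a median of −0.090 and none past the threshold (1 higher and 4 lower at that unadjusted p). All 20 had levels at or above the median gene, and among the 11593 genes at such levels 58% lay below zero, with a median of −0.030, against 47.8% of all genes. Among them, Irf2bpl and Irf2bp1, which encode IRF2-binding corepressors, differed by −0.17 ± 0.057 and −0.18 ± 0.065, and Swap70, whose product restrains IRF4, by −0.29 ± 0.097.

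Sensors and kinases upstream of IRF3, IRF5 and IRF7 were below zero in 22 of 26 genes (median −0.083). Of the 20 at or above the median level 18 were below zero, beside the 58% of all genes at such levels. None of the 26 passed, with 1 higher and 5 lower before adjustment (limma, p under 0.05). Over all genes 6.97% were higher and 7.91% lower at that p, and at or above the median level 7.76% and 13.8%. Ikbke, a kinase gene for IRF3 and IRF7, differed by −0.23 ± 0.056 and Slc15a4, a lysosomal transporter gene needed for the IRF5 route, by −0.19 ± 0.057, while the Toll-like receptor gene Tlr2 differed by 0.28 ± 0.070. Most interferon genes were dim: 10 of 16 lay below the median of all probe sets, and Ifnb1 was between 1.41 and 1.54. Their median difference was 0.020 with none past the threshold and 0 higher and 2 lower at that unadjusted p. Ifnl3 differed by −0.33 ± 0.12, and Ifnl2, of the same interferon class, by 0.14 ± 0.16. Ifnab, between 1.18 and 2.16 on all arrays, and Ifng, between 1.96 and 2.21, lay near or below the lower quartiles of the arrays, so no difference is given for them. Copies of this family can share probes.

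Interferon receptor and JAK-STAT genes held no call either among 15 measured (median −0.022). Before adjustment (limma, p under 0.05) 1 was higher and 4 were lower. The shares were 6.97% and 7.91% for all genes, and 7.76% and 13.8% for genes at or above the median level. Jak1, the kinase gene shared by interferon and common gamma chain receptors, read 10.75, 10.75 and 10.78 in the controls and 10.33, 10.38 and 10.44 with the knockout label (limma's adjusted p = 0.0647). Stat2, the partner of IRF9, read 5.67, 5.41 and 5.47 against 5.24, 5.05 and 4.84. Its difference of −0.47 ± 0.12 did not pass (limma's adjusted p = 0.171), and neither did that of the phosphatase gene Ptpn6 (−0.29 ± 0.056).

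Target genes of IRF1 held 1 call and those of ISGF3 none, a contrast that was not tested. Gbp2, a guanylate-binding protein gene, rose 1.96-fold, from 5.38, 5.42 and 5.07 to 6.42, 6.10 and 6.26 (limma's adjusted p = 0.0405). This call was lost with any 1 array left out (limma's adjusted p between 0.119 and 0.171) and under the replicate block. It was the 1 call among 32 IRF1 targets, of which 6 were higher and 4 lower before adjustment (median −0.016). Gbp4 differed by 0.58 ± 0.081 and Casp1, the caspase-1 gene, by −0.44 ± 0.066 without passing (limma's adjusted p = 0.0514 and 0.0622). Guanylate-binding protein genes are related copies that may share probes, so their values, that of Gbp2 included, are uncertain. None of 38 ISGF3 targets passed, and their median was −0.095. Below zero were 27 (18 of the 22 at or above the median level), beside 47.8% of all genes and 58% of those at such levels. Before adjustment (limma, p under 0.05) 9 stood lower and 1 higher. The shares were 7.91% and 6.97% for all genes, and 13.8% and 7.76% for genes at such levels. The antiviral genes Ifitm2, Rsad2 and Isg20 differed by −0.32 ± 0.055, −0.56 ± 0.10 and −0.45 ± 0.094 (limma's adjusted p = 0.0797, 0.0929 and 0.114). The 1 higher was Ifit1, at 2.75 ± 0.21 in the controls, below the array medians, and at 3.38 ± 0.18 with the knockout label (limma's adjusted p = 0.116).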

How the data were processed

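Total RNA of an ILC2 line was measured on 6 arrays, 3 per group; groups came from sample titles. RMA is the method by which the authors reached their log2 values, per the submitters' processing notes, which also name limma 3.14.4. RMA sets the arrays to a common scale, so a change common to all transcripts cannot be measured. Which array version, probes per set and genome build the authors used is not given in the sources used here. Of 25206 probe sets, 23185 had 1 gene symbol in the platform annotation, 0 had several and 2021 had none. Those with 1 symbol went into limma 3.58.1 under R 4.3.3 (lmFit, then eBayes; two-sided, no covariate), as knockout label minus control. A gene passed where its p after Benjamini-Hochberg adjustment was under 0.05. The procedure was tested on simulated data.

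The members and lists were chosen with earlier results of these data known. Named genes were the members, Myc, every list member past the threshold, the 3 smallest p-values of each of 9 pathway lists, Batf, Junb, Spi1, Stat2, Prdm1 and Il9, and the 5 genes most like Irf4; other names were chosen after their values were seen. Some genes are not reported here. The pathway lists held 225 entries, of which 204 were measured; 4 measured genes stand in 2 lists (Stat2, Usp18, Ifi35 and Socs1). Whether replicate numbers pair the arrays is not in the labels. Deviations of arrays with the same number correlated at −0.070, −0.012 and −0.017, which shows no pairing but cannot exclude it. Alternatives were a replicate block, an intensity trend, a robust prior, cyclic loess, centring on medians, array weights, removal of dim genes, all probe sets, looser thresholds and each array left out. The number of arrays limits the precision. Figures were drawn with matplotlib 3.10.9.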

Additional observations from a re-analysis of the deposited data

How the results depend on the processing

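Irf4 kept its direction under all 15 alternatives to the fit, with log2 differences of 0.70 to 0.86 and limma's adjusted p between 0.0119 and 0.183. With the replicate block 0 members and 0 genes in either direction passed (Irf4 at limma's adjusted p = 0.173; unadjusted, 1486 genes higher and 1560 lower), and numbers did not match arrays best with their own number. With each array left out in turn, 0 members passed as higher, and 0 to 2 genes as higher and 0 to 1 as lower (limma; 1311 to 1572 and 1454 to 1688 unadjusted). Over all genes, an intensity trend gave 162 higher and 208 lower, genes at or above the median level 204 and 345 (Irf5 is not among them), genes at or above the lower quartile 92 and 100, an adjusted p under 0.1 185 and 228, and an unadjusted p under 0.05 1616 and 1834, with 2 members lower. Under each of these, Irf4 was the 1 member higher. The sign of Irf3 turned under cyclic loess (0.0059) and without control replicate 1 (range with each array left out −0.074 to 0.027), and that of Prdm1 without replicate 1 of the knockout label (range −0.092 to 0.0058); the cause was not tested. Median centring gave 61 genes higher and 61 lower against 59 and 46, and cyclic loess 70 and 38. Of the other calls named, Il9, Il17a, Il21, Il5, Tigit, Bcl6 and Gbp2 were lost under the block and with each array left out, while Gbp4 passed under 5 alternatives, Jak1, Stat6 and Casp1 under 3 each, Fos, Fosl2 and Ifitm2 under 2 each, and Ptpn6, Rsad2, Isg20 and Myc (higher) under 1. Depth is not defined for arrays. Irf5, most interferon genes and Spi1 lie near background, and the control values of Il17a, Il21 and Klrk1 lie below the array medians.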

Other observations

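In the genome Irf1 lies next to Il5, by gene order in the RefSeq table for GRCm38.p6, and the 2 neighbours had differences of opposite sign: Il5 rose by 0.49 ± 0.061 on the log2 scale and Irf1 stood at −0.13 ± 0.093. On its other side Slc22a5 differed by 0.011 ± 0.066. Dusp22, a phosphatase gene beside Irf4, differed by 0.32 ± 0.064 without passing (limma's adjusted p = 0.108), and Exoc2 on the other side by −0.10 ± 0.064. Neighbours of Irf8, Cox4i1 and Foxf1, differed by −0.082 ± 0.11 and 0.18 ± 0.091, and those of Irf9, Rnf31 and Rec8, by 0.029 ± 0.098 and 0.035 ± 0.069. None of the measured neighbours of Irf2, Irf3, Irf5 and Irf7 passed. These neighbours were looked up after the values of the members were known, and the values are given as a description.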
